A study of Mus musculus with 6 samples.

Results

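Bile acid sensing and transport was examined through 8 genes, Slc10a2, Slc51a, Slc51b, Abcc3, Abcc4, Gpbar1, Nr1h4 and Nr0b2, which were taken by symbol from the 25302 rows of the deposited gene table. All 8 were found there. RNA was sequenced from biliary epithelial cells of mouse liver, the cells that line the bile ducts, in 3 Control and 3 Sox9cKO samples. Per the labels, Control samples had the genotype Sox9fl/fl, and Sox9cKO samples had the genotype Sox9fl/fl:AlbCre+/-. All 6 samples therefore carried floxed Sox9, and the Cre transgene was present only in the Sox9cKO group, so effects of Cre itself and of Sox9 loss cannot be told apart. AlbCre is driven by the albumin promoter, which is active in liver progenitors and hepatocytes. The labels give no age, and nothing in them says that the samples came from separate animals, so the p-values measure the spread between these samples, which may be partly technical. A biliary sample is a bulk sample, in which fewer cells of a type and less RNA per cell cannot be told apart.

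Bile acids are made in hepatocytes, secreted into bile and partly taken back up by the duct epithelium, a loop known as the cholehepatic shunt. In cholangiocytes the sodium-dependent transporter Slc10a2 (ASBT) brings bile acids in across the apical membrane. The heterodimer of Slc51a and Slc51b (OST-alpha and OST-beta) and the ATP-driven pumps Abcc3 (MRP3) and Abcc4 (MRP4) move them out, mainly across the basolateral membrane. Bile acids are sensed by the nuclear receptor Nr1h4 (FXR), whose best known target is the corepressor gene Nr0b2 (SHP), and by the membrane receptor Gpbar1 (TGR5), which raises cAMP.

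The promoters of 4 genes are shown because the results turn on them: Nr0b2 and Abcc4 had the largest differences among the tested genes of the group, and Slc51a and Slc51b had almost no reads. Each line holds the 250 bases before the gene's start, 5′ to 3′ on the gene's strand, from RefSeq on build GRCm38.p6, in which 7 of the 8 genes had an entry. Capitals mark 2 motifs searched on both strands: AGGTCA, the half-site bound by Nr1h4 and many other nuclear receptors, and TCAAGG, the core of the site bound by Nr5a2 (LRH-1), a nuclear receptor known to drive Nr0b2.

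Nr0b2 promoter, chr4:133553126-133553375, plus strand: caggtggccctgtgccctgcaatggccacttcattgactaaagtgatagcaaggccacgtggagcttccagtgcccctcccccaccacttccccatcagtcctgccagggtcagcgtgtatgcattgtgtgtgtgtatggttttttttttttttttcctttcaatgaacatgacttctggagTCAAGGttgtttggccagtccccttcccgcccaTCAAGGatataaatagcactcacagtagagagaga
Slc51a promoter, chr16:32487880-32488129, minus strand: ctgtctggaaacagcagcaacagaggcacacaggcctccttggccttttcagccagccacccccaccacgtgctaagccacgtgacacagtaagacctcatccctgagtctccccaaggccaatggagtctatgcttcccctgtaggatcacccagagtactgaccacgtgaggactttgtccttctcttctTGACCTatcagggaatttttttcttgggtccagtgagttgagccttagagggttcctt
Slc51b promoter, chr9:65422774-65423023, minus strand: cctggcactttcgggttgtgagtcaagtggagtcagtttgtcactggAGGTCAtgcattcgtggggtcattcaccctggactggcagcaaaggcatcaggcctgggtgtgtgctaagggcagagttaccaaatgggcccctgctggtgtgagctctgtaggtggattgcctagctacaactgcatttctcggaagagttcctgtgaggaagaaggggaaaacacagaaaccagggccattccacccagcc
Abcc4 promoter, chr14:118706220-118706469, minus strand: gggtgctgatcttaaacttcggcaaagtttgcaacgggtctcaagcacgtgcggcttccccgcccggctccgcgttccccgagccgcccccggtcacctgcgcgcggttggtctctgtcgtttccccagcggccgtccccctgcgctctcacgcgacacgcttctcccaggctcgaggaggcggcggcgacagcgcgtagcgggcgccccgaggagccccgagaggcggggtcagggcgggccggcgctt

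The Nr0b2 promoter held TCAAGG at 2 places, from 68 to 63 and from 35 to 30 bases before the start. The AGGTCA half-site was found from 58 to 53 bases before the start of Slc51a, on the opposite strand, and from 203 to 198 bases before the start of Slc51b. RefSeq lists 2 promoters for Abcc4, of which the first is shown, and neither window held either motif. Of all 32851 promoters in the table, 12.5% held TCAAGG and 14.0% held AGGTCA in a window of the same length. The inverted repeat of the half-site with 1 base between its arms, known as IR-1, which contains the half-site on both strands, was in none of these 4 windows and in 2 of all promoters. A match describes only these letters and is not evidence of binding.

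Each sample had between 11883496 and 16191990 reads assigned to genes. Levels are given as normalized read counts: the reads of a gene over its sample's size factor, so that 1 read was worth between 0.841 and 1.15 units. Sox9, the targeted gene, had a mean of 6182 ± 127 in Control and 3289 ± 108 in Sox9cKO (SD, n = 3), so the transcript was reduced but not absent. The biliary markers Krt8, Krt18, Spp1, Cdh1, Krt19 and Epcam were abundant, and the summed level of 14 biliary markers was 184978 to 233911 in Control and 177111 to 243171 in Sox9cKO. Other cell types were also present in the RNA. The summed level of 12 endothelial markers ranged from 1845 to 40804 in Control and from 6512 to 41453 in Sox9cKO, and that of 14 hepatocyte markers from 19053 to 30238 and from 23090 to 37188. Most of the hepatocyte sum was Alb, which alone had 17384 to 27683 in Control and 21399 to 35363 in Sox9cKO. The ranges of the 12 mesenchymal and mesothelial markers (3805 to 4574 in Control, 5015 to 7609 in Sox9cKO) and of the 12 measured macrophage, leukocyte and erythroid markers (1075 to 1247, against 1620 to 1846) did not overlap. Without the genes of these lists that passed the test, Msln and Csf1r, the ranges did overlap (3441 to 4205 against 4188 to 5869, and 278 to 523 against 208 to 354). No measured marker was at 0 in any sample.

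Levels of the 8 genes differed widely. Reads per gene depend on transcript length, so levels were compared between genes as normalized counts per kilobase of the longest annotated transcript. In Control, Abcc3 was highest with 306 ± 21.4 per kilobase, followed by Abcc4 with 225 ± 47.5 and Nr1h4 with 101 ± 7.69 (SD, n = 3), and the sample ranges of these 3 genes were separate. Nr0b2 (52.7 ± 28.0) and Slc10a2 (51.7 ± 16.7) came next, with overlapping ranges. Gpbar1 (5.46 ± 1.36), Slc51b (5.03 ± 4.65) and Slc51a (1.02 ± 0.607) came last. The range of Slc51b overlapped those of both its neighbours, while that of Gpbar1 lay wholly below that of Slc10a2.

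In Sox9cKO the order per kilobase was different. Abcc4 led with 496 ± 90.0, overlapping Abcc3 with 420 ± 56.7. Nr1h4 (108 ± 32.6) and Slc10a2 (66.1 ± 43.1) followed with overlapping ranges. Nr0b2 stood at 10.9 ± 4.86, below Slc10a2 with separate ranges and overlapping Slc51b (8.82 ± 5.38). Gpbar1 (3.21 ± 0.872) and Slc51a (0.679 ± 0.535) were lowest. These positions are descriptions, and levels of different genes were not tested against each other.

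**Figure D1:**
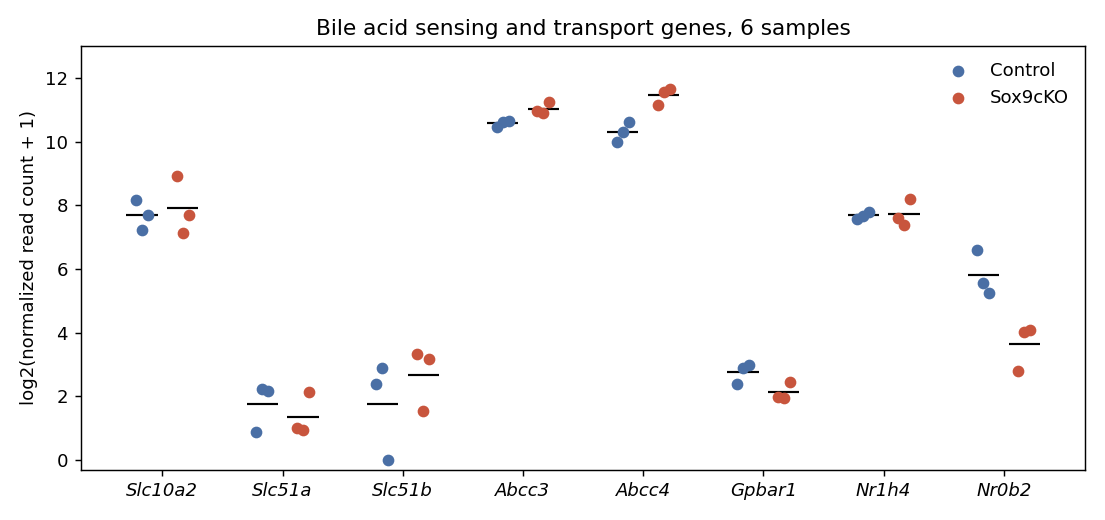
Levels of the 8 genes in each sample, as log2(normalized read count + 1) on the vertical axis. Blue points are the 3 Control samples, red points the 3 Sox9cKO samples, and black lines the group means. Abcc3 and Abcc4 lie highest, Slc51a, Slc51b and Gpbar1 lie near the bottom, and the groups separate for Abcc3, Abcc4 and Nr0b2.

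The comparison of Sox9cKO with Control asked which of these genes differ between the genotypes. Among all 17153 genes whose mean over the 6 samples reached 10 normalized counts, 510 passed an adjusted p of 0.05 (2.97% called; limma on log2(value + 1), Benjamini-Hochberg adjustment over all tested genes). The calls higher in Sox9cKO were 2.03% of tested genes and the lower ones 0.939%, and 8.05% of genes were called when samples were blocked by replicate number. The number called was 200 without Control replicate 1, 210 without Control replicate 3, 337 without Sox9cKO replicate 2 and 280 without Sox9cKO replicate 3. Of the 8 genes studied here, 5 could be tested and 1 was called, Abcc4, which was higher. The Control and Sox9cKO values did not overlap for 3 of the 5 tested genes (Abcc3, Abcc4 and Nr0b2), as they did not for 24.2% of all tested genes (13.4% with Sox9cKO higher, like Abcc3 and Abcc4, and 10.8% with it lower, like Nr0b2). The other 3 genes had too few reads for the test.

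Among the export pumps, Abcc4 (ENSMUSG00000032849) rose. Control replicates 1 to 3 had 1022, 1266 and 1565 normalized counts, against 2250.5, 3024 and 3224 for Sox9cKO replicates 1 to 3. The lowest Sox9cKO sample lay above the highest Control sample. The means were 1284 ± 272 and 2833 ± 514 (SD, n = 3), a ratio of 2.21. On the log2 scale this was 1.15 ± 0.20 (SE; limma adjusted p 0.0305, and 0.00191 when blocked by replicate number). Within pairs of the same number, Sox9cKO exceeded Control in every pair, and the order of the replicates was the same in both groups. The call was lost without Control replicate 1 (limma adjusted p 0.115), Control replicate 2 (0.0717), Sox9cKO replicate 2 (0.0946) or Sox9cKO replicate 3 (0.0918), with log2 fold changes between 0.99 and 1.30 over the fits that left out 1 sample. Abcc4 exports bile acid conjugates as well as cyclic nucleotides and prostaglandins. The summed mesenchymal and mesothelial markers were also separate between the groups, but overlapped without Msln. The summed macrophage, leukocyte and erythroid markers were separate through Csf1r: without it they ran from 278 to 523 in Control and from 208 to 354 in Sox9cKO, and 8 of the 10 tested markers had lower values in Sox9cKO. The part of these markers in the Abcc4 difference was not tested. In the mouse annotation Abcc4 overlaps Gm23302, a small nuclear RNA, and Gm49033, a processed pseudogene, on the opposite strand. It also overlaps the microRNA gene Mir6391 on the same strand. The part of these genes in the Abcc4 reads was not tested either.

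Abcc3 (ENSMUSG00000020865), a pump for glucuronides and bile acid conjugates, was higher in Sox9cKO by a smaller amount that did not pass the threshold. The Control samples had 1411, 1569 and 1615 normalized counts and the Sox9cKO samples 1976, 1900.5 and 2425. The groups did not overlap, and Sox9cKO exceeded Control in each same-numbered pair. The means were 1532 ± 107 and 2100.4 ± 284 (SD, n = 3). The log2 fold change was 0.45, with a 95% interval of 0.14 to 0.76 before any adjustment (limma adjusted p 0.134, and 0.0507 when blocked).

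The uptake transporter Slc10a2 (ENSMUSG00000023073) varied more between samples than between groups. Its normalized counts were 287, 149 and 207 in Control and 478, 139 and 207 in Sox9cKO, with wide overlap. Replicate 1 was highest and replicate 2 lowest in both groups. The log2 fold change was 0.21 with a 95% interval of -0.86 to 1.28 (limma adjusted p 0.861). It changed sign without Sox9cKO replicate 1 (-0.29) and without Control replicate 2 (-0.027), so neither a rise nor a fall could be read.

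Both subunits of the basolateral exporter were close to the limit of detection. Reads of Slc51a (ENSMUSG00000035699) numbered 1, 4 and 3 in the Control samples and 1, 1 and 3 in the Sox9cKO samples. Slc51b (ENSMUSG00000053862) had 5, 7 and 0 reads in Control and 9, 2 and 7 reads in Sox9cKO. The groups overlapped for both genes. A count of 0 allows up to 3 reads (3.46 normalized counts in that sample, counting error only), and no direction is read for Slc51a, whose reads exceeded 3 in 1 sample only. The log2 ratio of Slc51a to Slc51b, with a pseudocount of 1, was -0.0044 ± 1.92 in Control and -1.30 ± 0.907 in Sox9cKO (SD, n = 3). The difference was -1.30 (exact permutation test, two-sided p 0.5, where 3 against 3 samples cannot give a value below 0.1). It was -0.22 without Control replicate 3, the sample with no Slc51b read, -0.79 without Sox9cKO replicate 1 and -2.05 without Control replicate 1. A pseudocount of 0.1 gave -2.45 and one of 5 gave -0.59, so the size of this difference is not fixed by the data. In the mouse annotation Slc51a overlaps Pcyt1a and Slc51b overlaps Rasl12 on the opposite strand, and use of strand in the counting is not given in the sources used here, so even these few reads are of uncertain origin.

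**Figure D2:**
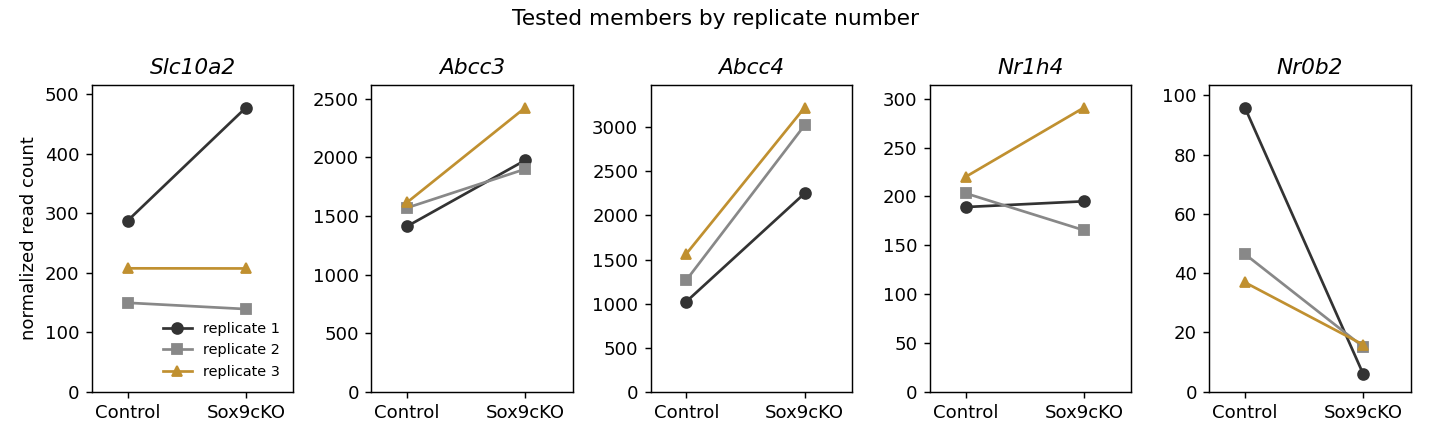
Normalized read counts of the 5 tested genes, with a panel and a vertical scale starting at 0 for each. Lines join the Control and Sox9cKO samples that share a replicate number. Abcc3 and Abcc4 rise and Nr0b2 falls along all 3 lines, while the lines of Slc10a2 and Nr1h4 go in different directions.

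Of the sensors, the nuclear receptor Nr1h4 (ENSMUSG00000047638) had similar levels in both groups. Its normalized counts were 189, 203 and 220.1 in Control and 195, 165 and 291 in Sox9cKO, with overlap. The means were 204 ± 15.5 and 217 ± 65.6 (SD, n = 3). The log2 fold change was 0.050 with a 95% interval of -0.48 to 0.58 (limma, adjusted p 0.943), and it turned negative without Control replicate 1 (-0.0037), without Sox9cKO replicate 3 (-0.18) and under quantile normalization (-0.073). Its dimer partner Rxra, a retinoid X receptor, had means of 711 ± 106 and 713 ± 79.7 (limma log2 fold change 0.0081, adjusted p 0.986).

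Nr0b2 (ENSMUSG00000037583), which encodes a corepressor without a DNA-binding domain that restrains bile acid synthesis in hepatocytes, was lower in all 3 Sox9cKO samples without passing the threshold. Single samples had 95.8, 46.4 and 36.9 in Control and 5.97, 15.1 and 15.8 in Sox9cKO, from 114, 50 and 32 reads against 6, 16 and 14 reads. The highest Sox9cKO sample lay below the lowest Control sample. The Control mean of 59.7 ± 31.6 was 4.85 times the Sox9cKO mean of 12.3 ± 5.51 (SD, n = 3). On the log2 scale this was -2.17 ± 0.50 (SE), with a 95% interval of -3.35 to -0.998 before adjustment (limma adjusted p 0.0747, and 0.0564 when blocked). DESeq2 on the reads called it (adjusted p 0.00179) and edgeR did not (adjusted p 0.0670), and over all alternatives that gave a value the adjusted p lay between 0.00179 and 0.241 with log2 fold changes from -2.45 to -1.76. The replicates did not keep their order: replicate 1 was the highest Control sample and the lowest Sox9cKO sample. Nr0b2 is also expressed in hepatocytes. The summed hepatocyte markers, mostly Alb, were 30238, 19053 and 20683 in Control replicates 1, 2 and 3 against 35096, 23090 and 37188 in the Sox9cKO samples. Within Control, replicate 1 had the highest sum and the highest Nr0b2, while replicate 2 had the lowest sum and replicate 3 the lowest Nr0b2. Within Sox9cKO, replicate 2 had the lowest sum and replicate 1 the lowest Nr0b2. The part of hepatocyte RNA in the Nr0b2 values was not tested. Nr5a2, whose core motif stands in the printed promoter, had means of 1125 ± 67.1 and 1134 ± 329 (limma log2 fold change -0.026, adjusted p 0.967).

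The membrane receptor Gpbar1 (ENSMUSG00000064272) was barely detected, with 5, 7 and 6 reads in Control and 3, 3 and 4 reads in Sox9cKO. These were worth 4.20, 6.50 and 6.91 normalized counts in Control and 2.98, 2.84 and 4.53 in Sox9cKO, and the groups overlapped. Gpbar1 is known from sinusoidal endothelial cells and macrophages as well as from bile ducts. The part of such cells in its few reads was not tested.

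**Figure D3:**
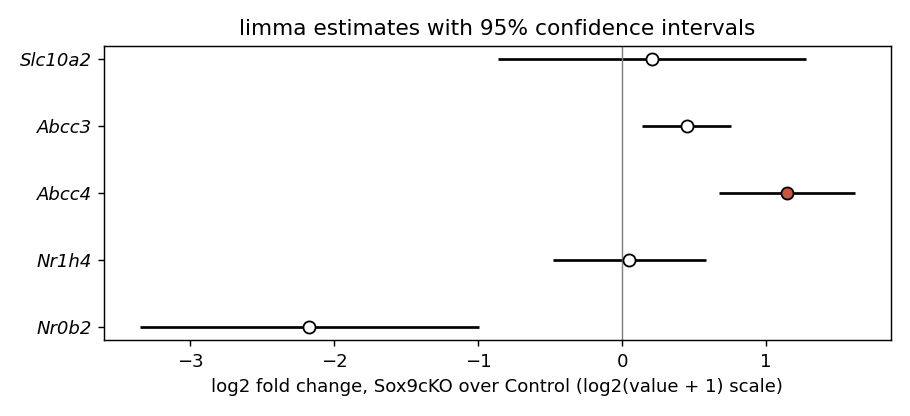
limma log2 fold changes of the 5 tested genes (Sox9cKO over Control, log2(value + 1) scale) on the horizontal axis, with unadjusted 95% confidence intervals. A filled point marks an adjusted p under 0.05. Abcc4 alone is filled, the intervals of Abcc3 and Nr0b2 exclude 0 without adjustment, and those of Slc10a2 and Nr1h4 span it.

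The other genes of the pathway were followed in 5 lists. For comparison, the 17153 tested genes had a median of 0.036 on the log2 scale. Among 13 tested transporters of bile acids and bile lipids outside the group, 1 rose, none fell and 12 did not pass the test (median 0.036). The gene that rose was Abcc2 (MRP2), the apical pump that exports conjugated organic anions into bile. Abcc2 stood at 172, 74.2 and 129 normalized counts in Control and 697, 1614 and 1501 in Sox9cKO, with no overlap. The means were 125 ± 49.1 and 1271 ± 500 (SD, n = 3), a ratio of 10.2. On the log2 scale this was 3.32 ± 0.41 (SE; limma adjusted p 0.00761), and it was called in all 16 alternatives. Abcc2 and Abcc4 thus passed the test while Abcc3 did not, but the differences between these 3 related genes were not tested. The hepatocyte uptake and export transporters Slc10a1, Slco1a1, Slco1b2 and Abcb11 had at most 32.8 normalized counts in any sample. Abcb1a, a multidrug pump and the most abundant of the list, had a log2 fold change of -0.012 that changed sign in 4 of the fits that left out 1 sample (limma, adjusted p 0.985).

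Of 22 tested receptors and regulators of the bile acid response, none rose, 2 fell and 20 did not pass the test (median 0.043). Fgfr4, the receptor for the bile-acid-induced hormone Fgf15, fell. Its normalized counts were 1241, 865 and 980.4 in Control and 309, 177 and 211 in Sox9cKO, without overlap. The means were 1029 ± 192 and 232 ± 68.9 (SD, n = 3), or -2.17 ± 0.24 on the log2 scale (SE; limma adjusted p 0.00553). It was called in all 16 alternatives. Its coreceptor Klb was low, with means of 15.4 ± 5.27 and 4.78 ± 2.08 (limma log2 fold change -1.51, adjusted p 0.157). The deacetylase gene Sirt1, whose product acts on Nr1h4, fell from 1933 ± 196 to 1230 ± 42.8 (limma log2 fold change -0.65, adjusted p 0.0328). Sirt1 was no longer called in 5 of the 6 fits lacking 1 sample, all but that without Control replicate 2, with an adjusted p of up to 0.150 without Control replicate 1. For Kmt2d, a histone methyltransferase and the most abundant gene of the list, the log2 difference was 0.15 (limma adjusted p 0.568). With the replicate block, Hnf4a, a hepatocyte nuclear receptor, was also called. It had means of 5150 ± 1269 and 8560 ± 1532 (log2 difference 0.75, limma adjusted p 0.131 unblocked and 0.0170 blocked). DESeq2, which called 1214 of all tested genes, called 4 of this list. It added Hnf4a (DESeq2 adjusted p 0.0398) and Ppargc1a, which was lower (log2 fold change -0.84, DESeq2 adjusted p 0.0156, limma adjusted p 0.110). The groups did not overlap for 11 of the 22 genes, against 24.2% of all tested genes. These counts were not tested.

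The cAMP branch below Gpbar1 had 21 tested genes, of which 1 rose, 1 fell and 19 did not pass the test (median 0.12). Adcy5, an adenylyl cyclase, rose from 35.2 ± 6.81 to 184 ± 37.2 (SD, n = 3; limma log2 fold change 2.35, adjusted p 0.00501), and it was called in all 16 alternatives. Adcy8, a calcium-stimulated adenylyl cyclase, fell from 20.1 ± 11.2 in Control (limma adjusted p 0.0377). No Sox9cKO sample had more than 2 of its reads, and the Sox9cKO mean was 0.663, so Adcy8 reached the minimum mean of 10 only through Control. It gave no value without Control replicate 2, without Control replicate 3 or at a minimum mean of 50. Of the 13 alternatives that gave a value, 7 called it. The Control mean was 6.55 times a floor of 3 reads per sample in Sox9cKO. This ratio takes no account of the Control spread (9.25 to 31.6 normalized counts), so it is not a lower limit of the fall. Adcy8 lost its call with edgeR (adjusted p 0.0521), under quantile normalization (limma, 0.0505), with a pseudocount of 0.1 (limma, 0.0799), and without Control replicate 1 (limma, 0.0861), Sox9cKO replicate 2 (0.101) or Sox9cKO replicate 3 (0.0948). The effectors of ductal bicarbonate secretion, the chloride channel Cftr and the anion exchanger Slc4a2, had log2 fold changes of -0.073 and 0.12 (limma, adjusted p 0.967 and 0.758). Gnas, which encodes the stimulatory G protein alpha subunit and was the most abundant of the list, had 0.16 (limma, adjusted p 0.682). With the replicate block Rapgef3, a cAMP-activated exchange factor that endothelial cells also express, was called too (log2 difference 0.95, limma adjusted p 0.482 unblocked and 0.0326 blocked), while edgeR with the same block called 2 genes of the list, not 3. Its values ran from 180 to 786 in Control and from 348 to 1086 in Sox9cKO, highest in replicate 2 and lowest in replicate 3 of both groups, as the endothelial marker sums were.

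None of 16 tested enzymes of bile acid synthesis passed the test (limma; median log2 fold change 0.39). At an unadjusted p under 0.05, limma gave 5, and at an adjusted p under 0.05 edgeR gave 0 and DESeq2 gave 1. The values of 14 of the 16 lay above 0 on the log2 scale, as did 54.2% of all tested genes, and the groups did not overlap for 7 of the 16, against 24.2% of all tested genes. These counts are descriptions without a test of the list. Acox2, a peroxisomal side-chain oxidase, had means of 117 ± 36.6 and 297 ± 117 (limma log2 fold change 1.28, adjusted p 0.133) and was called with the replicate block (adjusted p 0.0109). Hsd17b4, also peroxisomal and the most abundant of the list, differed by 0.35 on that scale (limma adjusted p 0.314). Cyp8b1, the 12-alpha-hydroxylase, had at most 8.06 normalized counts in any sample, and no deposited row had the symbol Cyp7a1.

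In the list of other genes described as responding to Nr1h4, 5 of 15 tested genes rose, none fell and 10 did not pass the test (median 1.37). The replicate block raised the number called to 8, all higher, by adding Kng1, Sdc1 and Nos2. DESeq2 called 10, of which Osgin1, an oxidative stress response gene, was lower (log2 fold change -0.68, DESeq2 adjusted p 0.0203; limma adjusted p 0.133). The 5 were Fga, Fgb and Fgg, the chains of the clotting protein fibrinogen, the complement gene C3 and the kininogen gene Kng2. Fgb rose from 56.1 ± 20.6 to 666 ± 75.5 (limma log2 fold change 3.62, adjusted p 0.00319) and C3 from 23908 ± 7494 to 107387 ± 3002 (2.22, adjusted p 0.00512). Fga (3.00), Fgg (2.87) and Kng2 (3.67) had adjusted p-values between 0.00393 and 0.00745 with limma. These genes are also acute phase genes of the liver, and the rise of the fibrinogen genes was known when the list was written, so the count is not independent evidence about Nr1h4. Kng2 has a near-identical paralog, Kng1, and the assignment of reads between them is uncertain. In the same samples Nr1h4 itself had a log2 fold change of 0.050 and Nr0b2 of -2.17.

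**Figure D4:**
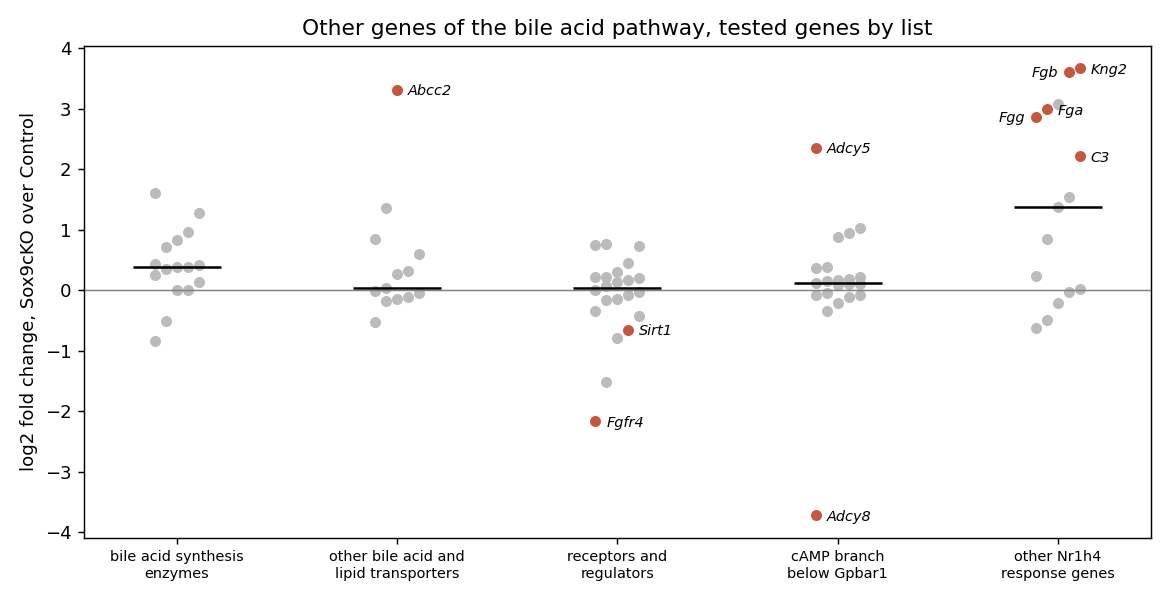
limma log2 fold changes (Sox9cKO over Control, vertical axis) of the tested genes in 5 lists of the bile acid pathway, which leave out the 8 genes studied. Red points with names have an adjusted p under 0.05, grey points do not, and black lines are list medians. Abcc2 and Adcy5 lie high and Fgfr4 and Adcy8 low within lists whose medians are near 0.

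Among the marker lists, 1 of 14 tested biliary markers rose (Krt7, limma log2 fold change 0.997, adjusted p 0.0408) and 1 of 14 hepatocyte markers rose (Tat, tyrosine aminotransferase, 2.26, adjusted p 0.00726), while Alb, the most abundant of the latter, had 0.47 (adjusted p 0.380). Krt7 was no longer called in 5 of the 6 fits lacking 1 sample, all but that without Sox9cKO replicate 2 (adjusted p up to 0.152, without Control replicate 1). With the replicate block Spp1, a secreted phosphoprotein, was also called, and was lower (-0.66, limma adjusted p 0.0321). None of 12 endothelial markers was called with limma, edgeR or DESeq2 (1 at an unadjusted p under 0.05 with limma), and with the replicate block Vwf was called (0.72, limma adjusted p 0.0420), although edgeR with the same block called 0 of the 12. All 12 had higher values in Sox9cKO on the log2 scale (median 1.07), and the groups did not overlap for 1 of these markers. Their most abundant gene, Stab2, had a log2 fold change of 1.24 with a standard error of 1.24, which was -0.12 without Control replicate 3. Of 10 tested macrophage, leukocyte and erythroid markers, Csf1r rose (0.92, limma adjusted p 0.0142), while 8 of the 10 had lower values in Sox9cKO and the list's median was -0.46. Of these 8, Ptprc (-1.95, limma adjusted p 0.266) and Cd68 (-0.39, limma adjusted p 0.272) had groups that did not overlap, and neither passed the test. Of 12 mesenchymal and mesothelial markers, Msln rose (2.01, limma adjusted p 0.0159). Csf1r lost its call without Control replicate 1 (adjusted p 0.0728), Control replicate 3 (0.0549) or Sox9cKO replicate 2 (0.0536), and Msln without Control replicate 1 (0.0719), Control replicate 3 (0.0581), Sox9cKO replicate 1 (0.0553) or Sox9cKO replicate 3 (0.0600).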

How the data were processed

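RNA was sequenced from 3 Control and 3 Sox9cKO samples, grouped by their labels. The authors deposited normalized read counts per gene, a signal divided by a size factor per sample; DESeq2 1.36.0 and build GRCm39 are named in the submitters' processing notes, and the aligner and use of strand are not given in the sources used here. Reads recovered from these values were whole for 100% of values in every sample (tolerance 0.001 reads). Per the labels, ribosomal RNA was depleted and molecular identifiers were used; whether the values count reads or identifiers is not given, and "reads" stands for either. The 1 row without a mouse gene identifier was kept and met the same minimum mean as all others.

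Genes with a mean of at least 10 over the 6 samples were tested two-sided on log2(value + 1) with limma 3.58.1 (R 4.3.3, trend), with Benjamini-Hochberg adjustment over 17153 genes and a threshold of 0.05. Fold changes on this scale understate the change of low genes. edgeR 4.0.16 and DESeq2 1.42.0 on recovered reads, TMM and quantile scaling, pseudocounts of 0.1 and 5, no filter, a minimum of 50, and each sample left out were alternatives. The pairing comes from the replicate numbers of the labels. Deviations from group means of same-numbered samples correlated at 0.207, 0.472 and 0.542. Differently numbered samples were not set against these, so the correlations do not settle whether the numbers are pairs. Intervals and floors cover counting or sample error only. Transcript lengths were taken from GENCODE M21 by gene identifier. The test was checked on simulated data with independent samples and the same dispersion for all genes. The simulation held no replicate or cell type effects, so it does not cover the spread of these samples. The members and lists were chosen with earlier results of these data known. Named genes were the 8 members, Sox9, and of each list up to 4 called genes by p-value and the most abundant; for each tested member, the gene of mean at least 100 with the highest correlation to it was also named. Other genes were named after their values were seen.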

Additional observations from a re-analysis of the deposited data

How the results depend on the processing

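The replicate block changed no call among the 8 genes. The number of all genes called, 510, became 1160 with edgeR and the replicate block, 1214 with DESeq2 and 1381 with the replicate block, and 200 to 389 when 1 sample was left out. Of the 8 genes, DESeq2 called 2 and the fits without 1 sample called 0 to 1. Over the pathway and marker lists together, 14 genes were called, against 23 with DESeq2, 23 with the replicate block and 9 to 12 without 1 sample. On the log2 scale, leaving out 1 sample gave -0.29 to 0.60 for Slc10a2, -0.18 to 0.22 for Nr1h4, 0.99 to 1.30 for Abcc4, -0.23 to 0.16 for Abcb1a, -0.23 to 0.078 for Krt8 and -0.12 to 2.34 for Stab2. Quantile normalization gave -0.073 for Nr1h4. For the untested Slc51a and Gpbar1, whose few reads allow no direction to be read, it turned log2 differences of -0.39 and -0.62 into 0.34 and -0.25. DESeq2 gave -2.32 for Nr0b2, with its adjusted p past the threshold. The cause was not tested. Nr0b2 gave no value at a minimum mean of 50. Depth limits Slc51a, Slc51b and Gpbar1, which had at most 9 reads in a sample.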

Other observations

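Genes whose mean reached 100 normalized counts were searched, and the gene whose log2 values over the 6 samples were most like those of each tested gene was found by Pearson's r, given as a description because the samples share depth and genotype. Abcc4 was most like Plekhg3 (r = 0.999), and 413 of 9939 genes had r over 0.9 with it. Abcc3 was most like Mcu (0.996, with 256 genes over 0.9), Nr0b2 like Rmnd5b (0.992, with 183), Slc10a2 like Arhgef16 (0.989, with 193) and Nr1h4 like Rnf103 (0.994, with 26).

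The bile acid receptor gene S1pr2 had means of 95.9 ± 10.7 in Control and 132 ± 12.2 in Sox9cKO (SD, n = 3; limma adjusted p 0.250). Cyp7b1, the oxysterol 7-alpha-hydroxylase, had 17.1 ± 9.01 and 52.3 ± 18.9 (limma adjusted p 0.133). Both genes were named after their values were seen.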
